A study of Mus musculus with 15 samples.

Results

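H3K27ac was compared between H3.3 conditional knockout (cKO) and wild-type (WT) bone marrow-derived macrophages (BMDMs) of the mouse. The libraries were those labelled WT H3K27ac (2) and cKO H3K27ac (2), which were 4 of the 15 samples of the series, and 192855 called regions of their lists, of 479596 in the lists of the series, entered the comparison on chromosomes 1 to 19 and X. Each region was placed on the mouse genome build mm10, and each of 21755 protein-coding genes was given a window of its annotated body plus 5000 bp upstream. The covered length of a gene is the number of bases of its window that lie inside called regions.

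The series profiled chromatin by CUT&RUN, in which fragments cut out around an antibody-bound nuclease are sequenced. It asked where the histone variant H3.3 lies in macrophages and how histone marks differ when H3.3 is deleted. WT cells carried H3f3a fl/fl and H3f3b fl/fl alleles without Cre. The cKO cells carried the same floxed alleles together with LysM-Cre on both copies of Lyz2, a lysozyme gene of the myeloid lineage, so deletion was limited to myeloid cells and Lyz2 itself was altered. Bone marrow cells of both genotypes were cultured for 6 to 8 days in L929 cell conditioned medium, a source of M-CSF. H3f3b deletion varied from partial to complete in such cultures by the study's methods, so a cKO library may hold cells that kept this gene. A smaller share of cells carrying a mark and less of the mark per cell cannot be told apart in these bulk libraries.

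H3.3 is the histone H3 variant that is placed into chromatin outside of DNA replication, mainly at expressed genes and at regulatory DNA. Acetylation of lysine 27 of histone H3 marks active promoters and active enhancers, and long stretches of it lie over genes that define a cell type. In macrophages such stretches are known at genes for lineage factors, scavenger receptors and lipid handling, while interferon-stimulated genes acquire the mark when interferon signals through JAK kinases and STAT and IRF factors.

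The targeted genes were examined first. H3f3a (chromosome 1, 180800832 to 180813943, minus strand) had 2153 and 2163 bp of H3K27ac regions in WT replicates 1 and 2 and 4058 and 3568 bp in cKO replicates 1 and 2. H3f3b (chromosome 11, 116021912 to 116027962, minus strand) had 6446 and 5784 bp in WT and 7209 and 9453 bp in cKO. Neither gene was shorter in cKO and neither passed the test described below (limma, adjusted p = 0.146 for H3f3a and 0.277 for H3f3b). H3f3a was gained by the gap rule described below. The H3f3b window, whose regions lay also in that of Unk, held 1 region in each WT library and 3 in each cKO library. The cause of this difference was not tested. Covered length thus did not show the deletion, and each direction rests on the labels. In what follows, a pair of values for a genotype gives replicate 1 and then replicate 2.

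The tissue was checked against its markers. Of 33 matched genes of macrophage surface and lineage, 32 had a region in at least 1 library. Csf1r, the M-CSF receptor, was covered over 17334 and 12988 bp in WT and 15224 and 14434 bp in cKO, and Spi1, which encodes the macrophage factor PU.1, over 24946 and 22233 bp and 22636 and 21597 bp. Both genes had overlapping values in the 2 genotypes. No region was called in any library at the T cell genes Cd3e, Cd4 and Cd8a, the B cell gene Pax5, the erythroid gene Gata1 or the stromal genes Col1a1 and Pdgfra. The summed covered length of the 18 lymphocyte markers was 5.33 and 5.39 kb in WT and 4.06 and 9.59 kb in cKO, and that of the 14 neutrophil markers 13.3 and 11.8 kb and 10 and 13.3 kb. Of the lymphocyte markers 5 had a region in some library, of which 1 B cell gene gave 3158 to 5564 bp in each library and the T cell gene Cd3d had none in WT and 903 and 1398 bp in cKO. Of 10 dendritic cell markers 2 (20%) were gained, Ccr9 with 2339 and 1976 bp in WT and 4903 and 5857 bp in cKO and Clec9a with 1567 and 1534 bp and 2939 and 2567 bp, and their summed length was 11.7 and 9.08 kb in WT and 13.4 and 16.4 kb in cKO. Of 14 stromal and endothelial markers 1 was gained, the endothelial and leukocyte gene Pecam1, with 5016 and 3392 bp and 7835 and 12545 bp. The part of other cell types in the results below was not tested.

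The cKO libraries had fewer regions. WT libraries held 61764 and 54630 regions covering 89.6 and 74.8 Mb, and cKO libraries 35018 and 41443 regions covering 46.2 and 62 Mb. Both cKO libraries lay below both WT libraries in number and in length, and the mean covered length in cKO was 65.8% of that in WT (82.2 ± 10.5 and 54.1 ± 11.2 Mb, SD, n = 2 each, two-sided exact permutation p = 0.33). With 2 against 2 libraries 0.33 is the smallest p that this test can give, so no value per library could pass 0.05. Sequencing depth did not follow the same order. WT replicate 2 had the fewest tags (16444864) of the 4 libraries, and the others had 25560110 to 29988098. Regions held 24.1% and 21.5% of the tags in WT and 11.8% and 17.8% in cKO. Covered length was lower in both cKO libraries than in both WT libraries on all 20 chromosomes, with cKO at 60.5% of WT on chromosome 18 and 74% on chromosome 11.

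The width of a typical region did not separate the genotypes. Median widths were 803 and 777 bp in WT and 757 and 809 bp in cKO (exact permutation p = 1). Regions of 5 kb or more numbered 2356 and 1781 in WT and 1056 and 1665 in cKO, and the widest region measured 51306 and 51474 bp in WT and 26133 and 31145 bp in cKO. Regions of 5 kb or more held 21.4% and 18.5% of the summed width in WT and 16.7% and 20.4% in cKO, which overlapped. Their mean number in cKO was 65.8% of that in WT, close to the 65.7% of all regions. The widest region was thus shorter in cKO, while the share of length in wide regions did not separate the genotypes.

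The loss was not even along genes. Regions within 1 kb of a protein-coding start site covered 13.6 and 11.9 Mb in WT and 11.8 and 15.8 Mb in cKO, values that overlapped. Away from start sites they covered 76 and 62.9 Mb in WT and 34.4 and 46.1 Mb in cKO, where the cKO mean was 58% of the WT mean. The share of covered length within 1 kb of a start was 15.2% and 15.9% in WT and 25.5% in each cKO library (15.5% ± 0.513 and 25.5% ± 0.0218, SD, n = 2 each, exact permutation p = 0.33). When the widest regions of each library were taken, as many as the shortest list holds, the share was 15.6% and 16.3% in WT and 25.5% and 26.4% in cKO, an alternative added after the share was seen. With all regions it was at least 9.62 percentage points higher in cKO with any 1 library left out.

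**Figure D1:**
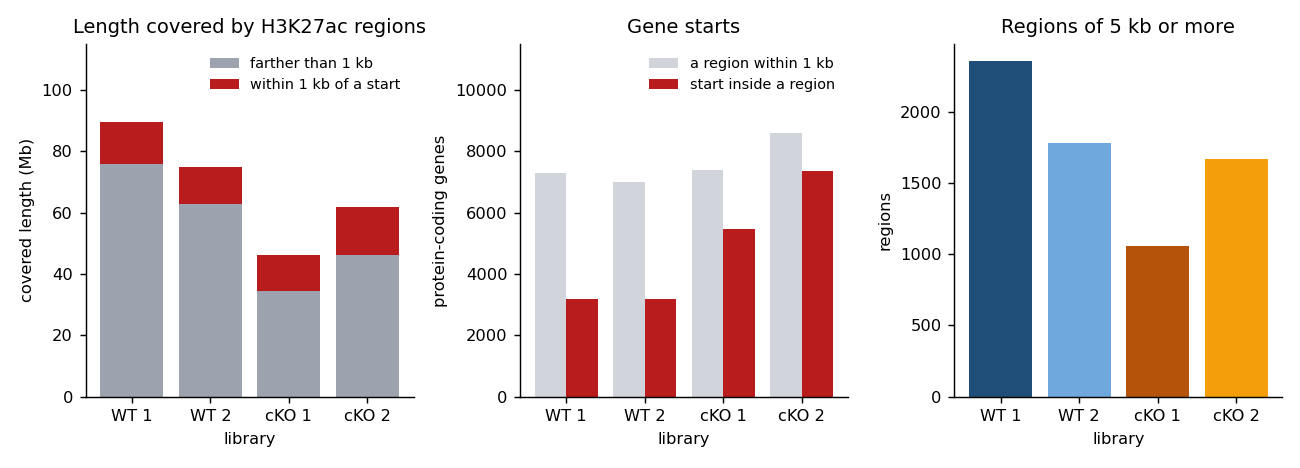
Values of the 4 H3K27ac libraries (x axis, WT and cKO replicates 1 and 2). Left, covered length in Mb within 1 kb of a protein-coding start (red) and farther away (grey), with the grey part lower in both cKO libraries; middle, genes with a region within 1 kb of the start (grey) and with the start itself inside a region (red), where the red bars stand at 3190 and 3188 in WT and 5477 and 7363 in cKO; right, number of regions of 5 kb or more.

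The position of the mark at gene starts also differed. In WT libraries coverage dipped at the start and was highest 500 to 1000 bp downstream, whereas in cKO libraries it was highest at the start itself. In the first 250 bp downstream of the start, 16.4% and 16.3% of bases were covered in WT and 25.8% and 34.1% in cKO (exact permutation p = 0.33). Between 1000 and 1250 bp downstream the values were 20.2% and 18% in WT and 16.9% and 22.7% in cKO, which overlapped. Counted per gene, the annotated start lay inside a region at 3190 and 3188 genes in WT and at 5477 and 7363 genes in cKO. The number of genes with any region within 1 kb of the start was closer, 7304 and 6987 in WT and 7404 and 8613 in cKO. Among these genes the start itself was covered in 43.7% and 45.6% in WT and in 74% and 85.5% in cKO. Genes with a region on each side of an uncovered start numbered 886 and 692 in WT and 202 and 124 in cKO. At 2594 genes the start was covered in the cKO libraries alone (2 of 2, with 0 of 2 in WT), and at 262 genes in the WT libraries alone. WT and cKO libraries were called against separate IgG controls, so a difference between these controls at gene starts and a difference in acetylation cannot be told apart. Among genes with an H3K36me3 region within 1 kb, that mark covered the start at 28.7% and 27.6% in WT and 22.3% and 33.9% in cKO, which overlapped. These shares rest on few covered starts, 189 and 192 in WT and 117 and 400 in cKO. The controls of both marks bear the same genotype names in the file headers, which does not show that the same IgG library was used. The part of the controls at gene starts was not tested.

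**Figure D2:**
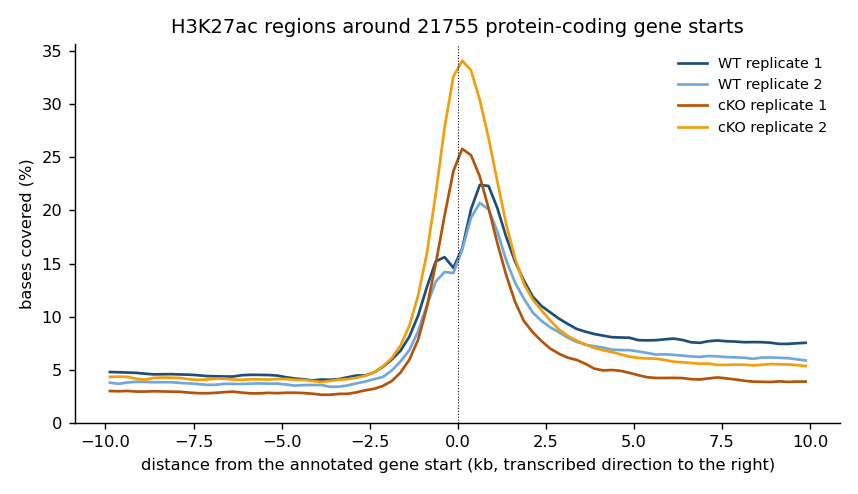
Percent of bases covered by H3K27ac regions (y axis) against distance from the annotated start of protein-coding genes in kb (x axis, 250 bp bins), 1 line per library. The WT lines dip at the start and are highest 500 to 1000 bp downstream, whereas the cKO lines are highest in the first 250 bp, at 25.8% and 34.1%.

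Genes were then compared by covered length. A gene was called gained when the lower cKO value exceeded the higher WT value by 1000 bp or more, and lost in the opposite case, with no test attached. By this gap rule 678 genes (3.12%) were gained and 3025 (13.9%) were lost. As a test, limma was fitted on log2(covered bp + 500) over 11696 genes with a region in at least 2 libraries, and 383 genes (3.27%) were higher and 1054 (9.01%) lower in cKO at an adjusted p below 0.05. At an unadjusted p below 0.05, 960 genes were higher and 2770 lower. Of the 383 higher genes 335 had no region in WT and of the 1054 lower genes 358 had none in cKO, so that these passed the filter through the group where they were high and had to differ. The remaining 48 higher and 696 lower genes had a region in both groups. Their adjusted p came from 1 fit made together with the bare genes, and so depends on them. No p is given for a gene that was bare in 1 group. The limma calls were not stable either, since none remained when genes with a region in only 1 library were also tested, and differences between the groups are therefore described mainly by the gap rule. The balance of gains and losses followed the total covered length. When each library was scaled to the mean covered length, 2427 genes (11.2%) were gained and 1552 (7.13%) lost, so that gains made up 61% of both in place of 18.3%. That scaling raises both cKO libraries and lowers both WT libraries, so a gained gene keeps its call by construction, and 1552 of the 3025 lost genes kept theirs. The median limma difference over all genes tested moved from -0.29 to 0.19 on the log2 scale, and single changes are best read against that shift. The study's own differential binding analysis reported more H3K27ac regions increased than decreased in cKO. Its unit was the region and not the covered length per gene, so the balances are not directly comparable.

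Gained and lost genes were of different kinds. The 678 gained genes had a median window of 18.2 kb, and the 3025 lost genes one of 65.2 kb. A gained gene held on average 1.61 and 1.52 regions in WT and 2.5 and 2.64 in cKO, and the covered bases per region were 1159 and 1097 bp in WT and 1621 and 1948 bp in cKO. Of its cKO length 64.7% and 62.1% lay within 2.5 kb of its own starts. A lost gene held 10.8 and 9.82 regions in WT and 4.94 and 5.41 in cKO, while the bases per region were 1564 and 1462 bp and 1326 and 1459 bp. Losses were thus mainly of whole regions, and away from starts, where the mean length per lost gene was 12.7 and 10.6 kb in WT and 4.2 and 5.07 kb in cKO. At 136 gained genes (20.1%) no WT library had a region, and at 147 lost genes (4.86%) no cKO library had one. The start itself was covered in the 2 cKO libraries alone at 388 of the 678 gained genes (57.2%). The same held at 515 of the 3025 lost genes (17%) and at 2594 of all 21755 genes. Gained genes were chosen for more covered length in cKO, which raises their share by itself. With bases within 1 kb of start sites left out, an alternative chosen after the coverage at starts was seen, 195 genes (0.896%) were gained and 3139 (14.4%) lost. The losses thus did not rest on gene starts, while only 180 of the 678 gained genes kept their call without bases near starts.

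Among the genes with the largest gains in bp were Acoxl, Ms4a4c, Dusp1, Oasl1, Nat9, Irf2bp2, Olfr56, Ccdc146 and Rnf213. Ms4a4c, a membrane-spanning protein gene of the MS4A family (chromosome 19, 11404770 to 11427246, plus strand), had 501 and 0 bp in WT and 8458 and 10055 bp in cKO (adjusted p = 0.0304 by limma). Oasl1, an oligoadenylate synthetase-like gene of the interferon response (chromosome 5, 114923240 to 114937915, plus strand), had 0 and 501 bp in WT and 7310 and 8202 bp in cKO (limma, adjusted p = 0.0321). Ms4a4c and Oasl1 were nearly bare in WT, and their gaps between the groups were 4386 and 5114 bp with start bases left out. Dusp1, a phosphatase that restrains MAP kinases, was covered over 9009 and 10458 bp in WT and 17729 and 20917 bp in cKO (limma, adjusted p = 0.0514). Acoxl, an acyl-CoA oxidase-like gene with an annotated span of 284998 bp, had 4974 and 5223 bp in WT and 14504 and 18812 bp in cKO, none of it within 2.5 kb of its own starts. The regions counted for Olfr56 were mostly those of the interferon-inducible GTPase gene Ifi47, and those of Nat9 lay also in the window of Tmem104. In each such pair the owner of the mark cannot be told from these lists.

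Interferon-stimulated genes were mostly gained or without a call. In what follows, shares of a list are read beside those of the 12766 genes with a region in any library, of which 5.31% were gained and 23.7% lost. A list share counts all matched genes, also those without a region, and so reads low where many members are bare. Of 76 matched genes 37 (48.7%) were gained and 0 lost, with a median difference of 1683 bp, beside a median of 0 bp over all protein-coding genes and of -360 bp over those with a region. The mean was above WT in 66 of the 76 genes and below it in 10, beside 4831 above and 7852 below of all 21755 genes. Their summed length was 256 and 219 kb in WT and 363 and 429 kb in cKO. By limma 12 of 75 tested genes were higher, of which 6 had a region in both groups. The chemokine gene Cxcl9 went the other way, with 946 and 630 bp in WT and none in cKO. The gained members included effectors that block viral RNA or protein synthesis. Ifit3 had 843 and 761 bp in WT and 4300 and 4387 bp in cKO, Slfn4, a Schlafen gene of myeloid cells, had no WT region and 6240 and 4908 bp in cKO, and Rsad2, which encodes viperin, had 3305 and 1935 bp and 7076 and 10199 bp. Mx1, a dynamin-like antiviral GTPase, had 4528 and 3265 bp in WT and 6769 and 6989 bp in cKO, and Isg15, a ubiquitin-like modifier, 1296 and 637 bp and 2684 and 3831 bp. Both sets of values were apart, but neither gene passed limma. Ifi44 (chromosome 3, 151730922 to 151749960, minus strand) had no region in either WT library and 1 region of 2882 and 4567 bp in cKO. Ly6a, which encodes the surface antigen Sca-1, had 501 and 0 bp in WT and 5118 and 5955 bp in cKO. Other members did not separate. Ifih1, which encodes the RNA sensor MDA5, had 8595 and 7437 bp in WT and 6561 and 10789 bp in cKO, and Siglec1 had 7315 and 6343 bp and 5720 and 7380 bp.

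The interferon gains were present at start sites and beyond them. Within 2.5 kb of their own starts the 76 genes had 163 and 153 kb in WT and 255 and 284 kb in cKO, and elsewhere in their windows 92.8 and 66 kb and 108 and 145 kb. The share of gained genes was the highest of the lists described here at this setting, but not at each one, since MHC class I genes were ahead with regions of at least 1 kb (11 of 18 against 39 of 76), with the widest regions (10 of 18 against 41), with 20 kb upstream (10 of 18 against 38) and without WT replicate 1 (12 of 18 against 47). With bases within 1 kb of any start left out, 24 of the 76 genes were still gained and 0 lost, beside 0.896% of all genes. Under the scaled lengths 62 were gained and 0 lost. Start sites inside a region numbered 52 and 51 in WT and 67 and 69 in cKO. Over all 21755 genes they numbered 3190 and 3188 in WT and 5477 and 7363 in cKO. The start was covered in the cKO libraries alone at 12 of the 76 genes, beside 2594 of all genes. A rise in covered starts was thus not particular to this list.

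The promoters of 5 genes are shown, taken from the genes with the largest gains in bp and the gained interferon-stimulated genes. Their annotated start lay inside a region present in each cKO list and absent from each WT list, which held for 6 of 45 genes considered. Nat9 was taken for its gain in bp and is not on the interferon list. The sequences run 5′ to 3′ on the coding strand from 250 bases before to 50 bases after the start, as given by RefSeq for build GRCm38.p6 (the same assembly as mm10), and capitals mark matches to GAAANNGAA or its reverse complement, the core letters of the interferon-stimulated response element (ISRE). The windows are chr11:115187807-115188106 (Nat9, minus strand), chr11:83174936-83175235 (Slfn4, plus strand), chr1:173599223-173599522 (Ifi213, minus strand), chr3:151749861-151750160 (Ifi44, minus strand) and chr11:83116570-83116869 (Slfn1, plus strand). The gained regions around them covered 6679 and 7188 bp at Nat9, 5566 and 3584 bp at Slfn4, 2396 and 2315 bp at Ifi213, 2882 and 4567 bp at Ifi44, and 2565 and 3833 bp at Slfn1 in the cKO libraries.
Nat9: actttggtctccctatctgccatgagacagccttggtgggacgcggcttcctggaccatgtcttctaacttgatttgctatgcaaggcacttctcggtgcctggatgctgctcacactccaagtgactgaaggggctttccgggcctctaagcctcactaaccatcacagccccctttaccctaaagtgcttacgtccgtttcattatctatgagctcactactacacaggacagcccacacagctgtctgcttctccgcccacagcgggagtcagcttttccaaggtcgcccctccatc
Slfn4: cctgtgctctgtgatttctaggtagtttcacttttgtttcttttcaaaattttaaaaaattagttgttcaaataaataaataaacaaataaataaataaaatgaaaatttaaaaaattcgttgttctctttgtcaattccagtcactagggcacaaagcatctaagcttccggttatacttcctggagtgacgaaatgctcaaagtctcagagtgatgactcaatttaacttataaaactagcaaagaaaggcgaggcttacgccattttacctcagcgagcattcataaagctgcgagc
Ifi213: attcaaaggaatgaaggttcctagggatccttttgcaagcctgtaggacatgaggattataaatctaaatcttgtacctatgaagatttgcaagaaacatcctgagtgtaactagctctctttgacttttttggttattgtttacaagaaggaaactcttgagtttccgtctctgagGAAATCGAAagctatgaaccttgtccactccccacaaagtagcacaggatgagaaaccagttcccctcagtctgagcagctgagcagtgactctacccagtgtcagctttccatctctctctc
Ifi44: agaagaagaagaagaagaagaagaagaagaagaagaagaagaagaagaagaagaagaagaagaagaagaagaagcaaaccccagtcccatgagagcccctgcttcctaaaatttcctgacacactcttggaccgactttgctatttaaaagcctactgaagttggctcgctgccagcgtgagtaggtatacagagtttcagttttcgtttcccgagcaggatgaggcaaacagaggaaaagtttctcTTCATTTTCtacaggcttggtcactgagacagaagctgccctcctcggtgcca
Slfn1: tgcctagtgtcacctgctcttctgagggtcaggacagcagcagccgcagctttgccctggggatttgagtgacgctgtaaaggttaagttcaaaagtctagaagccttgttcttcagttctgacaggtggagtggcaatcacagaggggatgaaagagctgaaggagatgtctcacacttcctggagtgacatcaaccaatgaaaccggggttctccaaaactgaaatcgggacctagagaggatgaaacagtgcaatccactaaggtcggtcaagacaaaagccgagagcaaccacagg

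Ifi213 and Ifi44 each held 1 match, starting at position -73 and -3 from the start, and the other 3 windows held none by these letters. Over all genes with a RefSeq promoter, 9.76% had a match on either strand. The share was 60% of the 30 gained interferon genes with a promoter and 64.3% of the 28 interferon genes that were not gained, so the letters did not separate members that gained. Gained genes outside the interferon list had a match in 11.9%, and lost genes in 8.8%.

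Of 23 genes that transmit interferon signals 2 (8.7%) were gained and 4 (17.4%) lost, shares near those of genes with a region (5.31% and 23.7%). Stat2, a subunit of the ISGF3 factor, had 0 and 501 bp in WT and 3813 and 3782 bp in cKO (limma, adjusted p = 0.0507). Jak1, the kinase shared by the interferon receptors, had 34878 and 35940 bp in WT and 10577 and 13738 bp in cKO (limma, adjusted p = 0.0304). Irf2, a factor that competes with activating IRFs, had 55331 and 43464 bp and 23716 and 31402 bp. The receptor genes Ifngr1 and Ifngr2 were also lost, with 14137 and 10707 bp against 8080 and 8340 bp for Ifngr1. Stat2 and the kinase above it were thus on opposite sides.

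Genes of antigen presentation by MHC class I were also gained, mainly at starts. Of 18 genes 8 (44.4%) were gained and 1, the peptidase gene Erap1, was lost. Tap1, which pumps peptides into the endoplasmic reticulum, had no WT region and 2852 and 4620 bp in cKO, and shared most of it with the proteasome gene Psmb9 beside it. H2-D1, a class I heavy chain, had 938 and 2165 bp in WT and 5198 and 5229 bp in cKO, although reads can be shared between class I genes. With start bases left out 1 of the 18 genes, H2-D1, was gained. For the 9 class II genes 1 was gained (H2-DMa) and 1 lost, namely Ciita, the class II master regulator, with 1296 and 1648 bp in WT and none in cKO.

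Inflammatory and NF-kappaB response genes were gained at 6 of 33 (18.2%) and lost at 1. Zfp36, which promotes decay of cytokine mRNA, had 2996 and 3400 bp in WT and 6307 and 7605 bp in cKO, and Nfkb2, an NF-kappaB subunit, had no WT region and 2693 and 2382 bp in cKO. Tnfaip3, the feedback inhibitor A20, was lost, with 11047 and 11317 bp in WT and 6709 and 7098 bp in cKO. Among 33 macrophage transcription factors, 6 (18.2%) were gained and 5 (15.2%) lost, beside 5.31% and 23.7% of genes with a region. The gained were the immediate early genes Fos, Junb and Egr1, together with Rela, Cebpb and Myb. Myb, a factor of progenitor cells, had no WT region and 2905 and 7179 bp in cKO. The lost were Runx1, Zeb2, Nfkb1, Maf and Mitf. Mitf, a factor of lysosomal and osteoclast genes, had 65928 and 61821 bp in WT and 28013 and 28221 bp in cKO (limma, adjusted p = 0.0304). With start bases left out 2 of these factors were gained and 5 lost. Zeb2, with 100503 and 92782 bp in WT and 62704 and 67295 bp in cKO, and Runx1, with 65003 and 57550 bp and 41175 and 51870 bp, were above WT when libraries were scaled to the mean covered length.

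**Figure D3:**
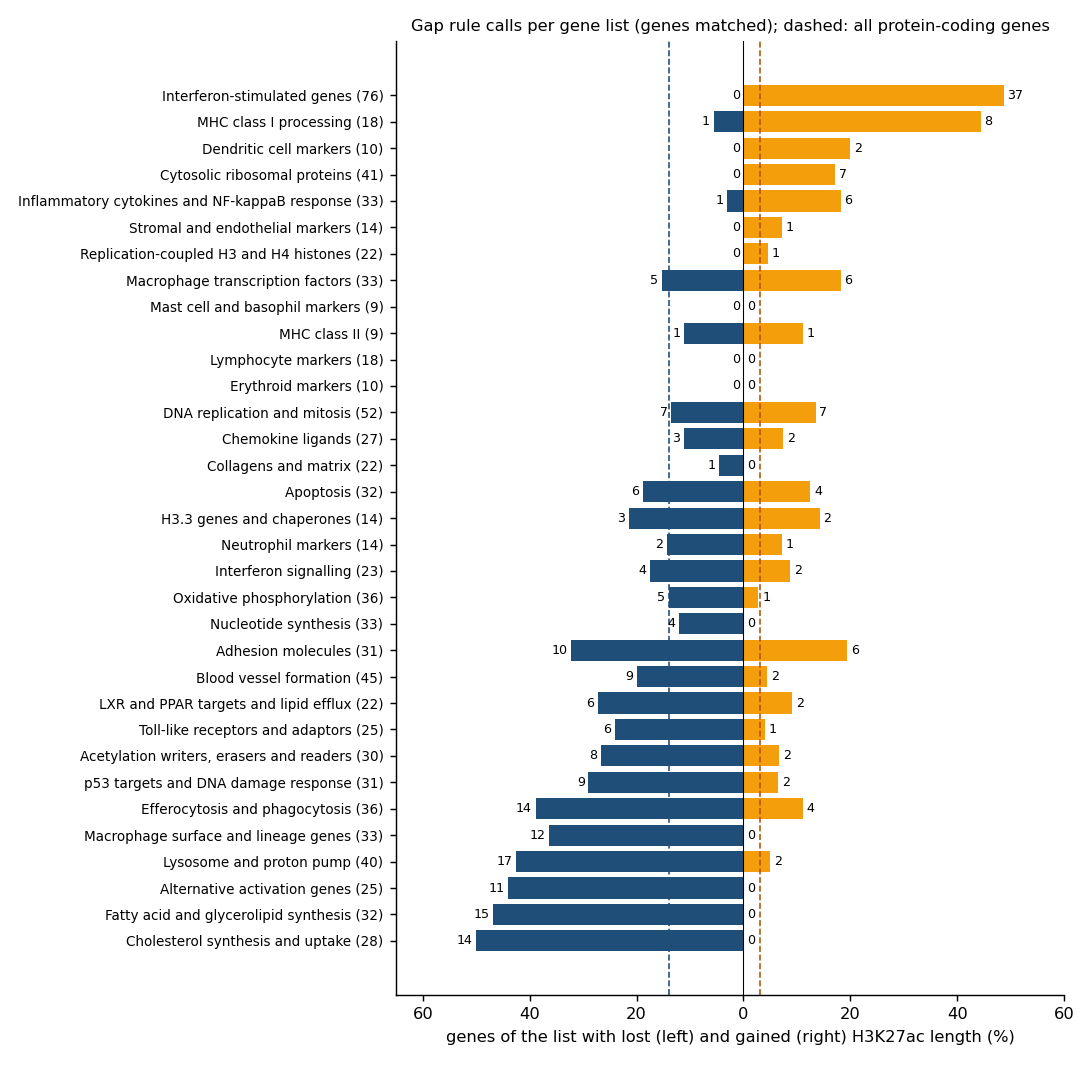
Percent of each gene list that was lost (left, blue) or gained (right, orange) by the gap rule, with the number of genes at each bar and the number matched in parentheses; dashed lines give all protein-coding genes (13.9% lost, 3.12% gained). Interferon-stimulated genes stand at the top with 37 gained and 0 lost, and cholesterol genes at the bottom with 0 gained and 14 lost.

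Genes of lipid synthesis were lost. Of 28 genes of cholesterol synthesis and uptake 14 (50%) were lost and 0 gained, with a median difference of -1884 bp, and limma called 5 of 25 lower (4 with a region in both groups) and 0 higher. Srebf2, the master factor of sterol synthesis, had 16024 and 14426 bp in WT and 5533 and 4704 bp in cKO (log2 difference -1.49 ± 0.17, SE, limma, adjusted p = 0.0304). Hmgcs1, which makes HMG-CoA, had 16999 and 16035 bp and 6546 and 3871 bp (limma, adjusted p = 0.0524). Insig1, which retains the SREBP complex in the endoplasmic reticulum, had 4727 and 4694 bp in WT and 974 and 725 bp in cKO. The loss was seen at the factor, at Hmgcs1 and at the transporter gene Npc1, with 24913 and 23392 bp in WT and 10846 and 13453 bp in cKO. Under scaling 10 of the 28 genes were still lost and 3 were gained.

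Of 32 genes of fatty acid and glycerolipid synthesis 15 (46.9%) were lost and 0 gained, with a median difference of -1876 bp. Srebf1, the lipogenic factor, had 14075 and 11149 bp in WT and 2640 and 4514 bp in cKO, and Acaca, acetyl-CoA carboxylase, 11951 and 11494 bp and 3575 and 5136 bp (limma, adjusted p = 0.0466 for Acaca). Acsl3, an acyl-CoA synthetase, had 15859 and 18934 bp in WT and 3534 and 4033 bp in cKO. Lpin1, a phosphatidate phosphatase (chromosome 12, 16535669 to 16610966, minus strand), had 4541 and 2316 bp in WT and 501 and 800 bp in cKO (limma, adjusted p = 0.0928). Farther than 2.5 kb from their starts the 32 genes had 148 and 126 kb in WT and 40.8 and 65.5 kb in cKO, and nearer they had 89.8 and 84.2 kb and 53.2 and 65.3 kb. Scaled lengths left 7 lost and 1 gained.

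Among LXR and PPAR targets and lipid efflux genes 6 of 22 (27.3%) were lost and 2 (9.09%) gained, close to the shares of genes with a region (23.7% and 5.31%). Lpl, lipoprotein lipase (chromosome 8, 68880491 to 68907448, plus strand), had 22046 and 22082 bp in 5 regions each in WT and 4348 and 4378 bp in 3 and 4 regions in cKO (log2 difference -2.21 ± 0.13, SE, limma, adjusted p = 0.0304). Abcg1, a cholesterol exporter, had 11644 and 11194 bp in WT and 2030 and 3922 bp in cKO, and Rxra, the receptor that pairs with LXR and PPAR, 23167 and 18654 bp and 6350 and 4764 bp. Pparg had 21625 and 21436 bp in WT and 14939 and 15272 bp in cKO, did not pass limma (adjusted p = 0.0872) and stood above WT when scaled.

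Genes of the resident and alternatively activated macrophage were lost in part. Of 25 alternative activation genes 11 (44%) were lost and 0 gained, and limma called 5 of 18 lower (1 with a region in both groups) and 0 higher. Mrc1, the mannose receptor (chromosome 2, 14229392 to 14332057, plus strand), had 40851 and 36230 bp in WT and 6871 and 4900 bp in cKO (log2 difference -2.63 ± 0.22, SE, limma, adjusted p = 0.0304). Slc40a1, the iron exporter ferroportin, had 9630 and 6510 bp in WT and no region in cKO, and Gas6, a ligand that bridges dying cells to the receptors Mertk and Axl, 7661 and 2895 bp and none. Arg1 had 5405 and 4179 bp in WT and 1942 and 2594 bp in cKO. The losses ranged from part of the marked length to all of it. Of the 25 genes 4 were lost and 0 gained when scaled.

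Of the 33 macrophage surface and lineage genes 12 (36.4%) were lost and 0 gained. Msr1, scavenger receptor A, had 41739 and 45970 bp in WT and 17549 and 13278 bp in cKO (limma, adjusted p = 0.0321). Adgre1, which encodes F4/80, had 13481 and 6560 bp and 2530 and 1357 bp. Lyz2 had 9414 and 8837 bp in WT and 2811 and 2435 bp in cKO, a loss at the gene that carries Cre in these cells. Other lineage genes kept their length, such as Csf1r above and Tyrobp, a signalling adaptor, with 6528 and 6510 bp in WT and 6150 and 6600 bp in cKO. When scaled, 6 of the 33 were lost and 12 gained, so the direction of this list as a whole depended on the scale.

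Genes for the uptake of dying cells were lost at 14 of 36 (38.9%) and gained at 4, whereas 7 were lost and 10 gained when scaled. Mertk, a receptor for such cells, had 10715 and 6482 bp in WT and 0 and 1130 bp in cKO, whereas Axl, a receptor of the same family, had 1910 and 501 bp and 4897 and 6844 bp. The pair thus lay on opposite sides. Dock1, the exchange factor for Rac1 in engulfment, had 36322 and 26910 bp in WT and 501 and 2155 bp in cKO (log2 difference -4.28 ± 0.56, SE, limma, adjusted p = 0.0321), and its partner Elmo1 177881 and 128492 bp and 50408 and 61293 bp.

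Adhesion genes were split, with 10 of 31 lost and 6 gained, and with 4 lost and 12 gained when scaled. Itgb1, the integrin beta 1 chain, had 31136 and 28413 bp in WT and 6955 and 4873 bp in cKO, and Cd44, the hyaluronan receptor, 59139 and 45992 bp and 18062 and 17253 bp, both lower by limma (adjusted p = 0.0304 each). Itgb7, the integrin beta 7 chain of leukocyte homing, had no region in WT and 5445 and 7722 bp in cKO. Other gained members were Pecam1, Tln1, Itga1 and Parvg, and the lost members included the integrin genes Itgav, Itgb5, Itga6, Itga4 and Itgb2.

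Lysosome and proton pump genes were lost at 17 of 40 (42.5%) and gained at 2, and 7 were lost and 11 gained when scaled. Lipa, lysosomal acid lipase, had 27947 and 25642 bp in WT and 16455 and 17844 bp in cKO. Atp6v1c1, a subunit of the vacuolar proton pump, had 24685 and 21415 bp and 12014 and 12579 bp (limma, adjusted p = 0.0448).

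Among genes with an annotated span of at most 500 kb, the losses in bp were led by Pid1, Snx29, Tns3, Gnaq, Nrp1, Arhgap10, Kif16b, Peak1, Plekhm3 and Cep128. Pid1, an adaptor linked to insulin signalling (chromosome 1, 84036296 to 84364180, minus strand), had 137958 and 134684 bp in 55 and 58 regions in WT and 42182 and 36688 bp in 27 and 16 regions in cKO. Nrp1, a receptor for VEGF and semaphorins (chromosome 8, 128358604 to 128503363, plus strand), had 95389 and 89723 bp in WT and 14448 and 15693 bp in cKO (log2 difference -2.58 ± 0.13, SE, limma, adjusted p = 0.0304). Its start was not part of the loss, since 2254 and 3750 bp in WT and 2869 and 2637 bp in cKO lay within 2.5 kb of its starts. Nrp2, its paralog, had 57433 and 43309 bp in WT and 9067 and 6686 bp in cKO. Kif16b, an endosomal kinesin, had 71893 and 61068 bp in 58 and 41 regions in WT and 3427 and 3653 bp in 4 and 6 regions in cKO. All 10 genes were lower by limma, which was fitted on the same covered lengths that chose them and so is no separate support. Relative to the window, among windows of at least 10 kb, Lpl, Spp1, Nrp1, Ell2, Mdfic, Hmgcs1, Itgb1 and Plau were the leading losses. Plau, the urokinase gene, had 11145 and 10108 bp in WT and 5381 and 5241 bp in cKO. Spp1, which encodes the matrix protein osteopontin, had 6270 and 6719 bp in WT and 501 and 648 bp in cKO.

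Blood vessel genes were lost at 9 of 45 (20%) and gained at 2 (4.44%). Of the 45, only 29 had a region in any library, so these shares are not on the base of the 23.7% and 5.31% above. The members named here have spans of at most 500 kb, and a lost member with a longer annotated span is not described. Besides Nrp1 and Nrp2, Tgfbr2, a TGF-beta receptor, had 32895 and 24504 bp in WT and 5471 and 3502 bp in cKO, and Angpt2, a ligand of the Tie2 receptor, 19901 and 14607 bp and 4041 and 4525 bp, the latter inside the window of Mcph1. Met, the hepatocyte growth factor receptor, had no WT region and 1768 and 3783 bp in cKO. Under scaling the list had 9 lost and 4 gained.

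**Figure D4:**
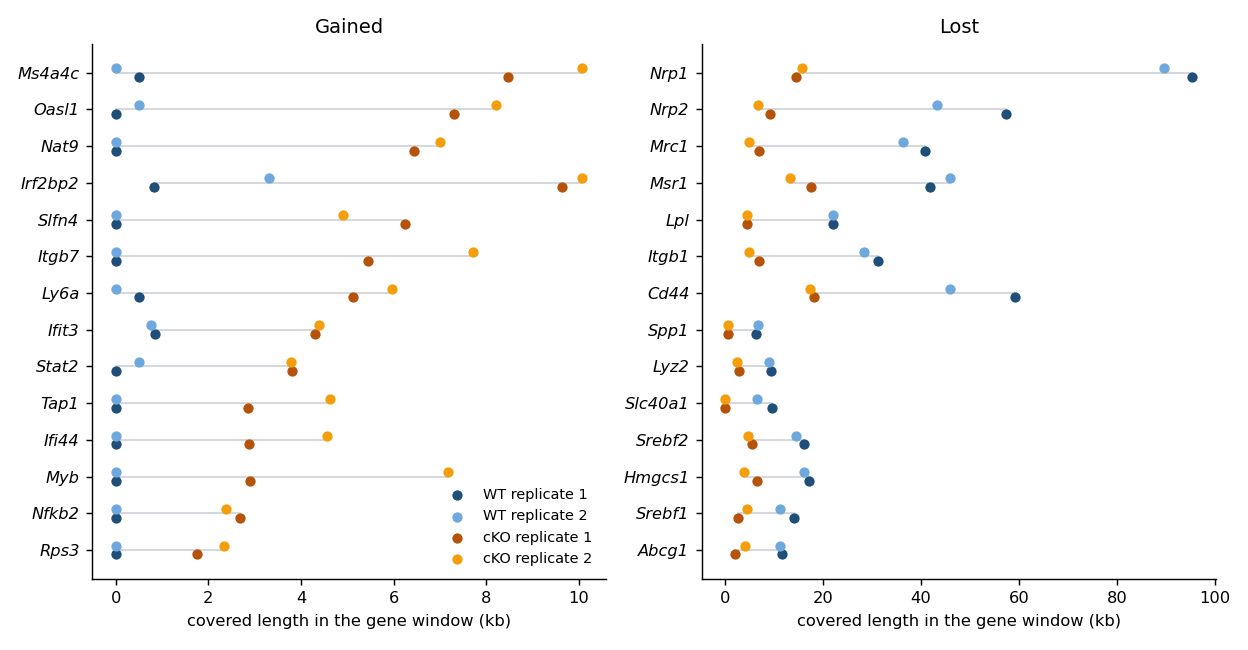
Covered length in kb (x axis) of 14 gained and 14 lost genes in the 4 H3K27ac libraries, chosen from the genes named in the text; blue points are WT and orange points cKO libraries, and grey lines span them. In each gene both cKO points lie on 1 side of both WT points.

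DNA replication and mitosis genes were gained at 7 of 52 (13.5%) and lost at 7 (13.5%), with Kif20a, a mitotic kinesin, bare in WT and covered over 2003 and 3411 bp in cKO, and Mki67, a marker of cycling cells, at 14786 and 10600 bp in WT and 7668 and 6207 bp in cKO. With start bases left out 0 of the 52 genes were gained and 5 lost. Of 41 cytosolic ribosomal protein genes 7 (17.1%) were gained and 0 lost, with a median difference of 807 bp and a summed length of 81.2 and 66.7 kb in WT and 78.4 and 131 kb in cKO, and 0 were gained and 2 lost with start bases left out. Their start lay inside a region in 8 and 7 genes in WT and 32 and 36 in cKO. Rps3, a protein of the small subunit, had no WT region and 1746 and 2335 bp in cKO. Of 31 p53 target and DNA damage response genes 2 (6.45%) were gained and 9 (29%) lost, beside 5.31% and 23.7% of genes with a region. The gained were Bbc3 and Pmaip1, which encode the death proteins PUMA and NOXA, with 3879 and 3215 bp in WT and 6130 and 7525 bp in cKO for Bbc3. The lost included Trp53bp1, a damage response adaptor, with 6975 and 6622 bp in WT and 2287 and 1002 bp in cKO, and Sesn1, a stress-induced gene, with 21280 and 17484 bp and 8834 and 13778 bp. Leaving out start bases gave 0 gained and 8 lost of the 31 genes, and scaling gave 8 gained and 3 lost. Among apoptosis regulators, the survival genes Mcl1 and Bcl2l1 differed in direction, with 4302 and 4144 bp and 8228 and 7333 bp for Mcl1.

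The window of Bcl2l1 was covered over 49829 bp by 1 region in WT replicate 1 and 48733 bp by 2 regions in WT replicate 2, and over 27546 and 23785 bp by 11 regions in each cKO library (limma, adjusted p = 0.0409). Widths were then compared over merged regions. Of the regions called in all 4 libraries (15390), 1950 were covered over 5 kb or more in both WT libraries. Their median covered length was 7919 and 7338 bp in WT and 5598 and 6456 bp in cKO, and 60.2% and 45% of them were a single piece in WT against 32.2% and 42.6% in cKO. A choice by WT width lowers the cKO values by itself, so the mirror set was also taken, which was added after these values were seen. The 1286 regions covered over 5 kb or more in both cKO libraries measured 8835 and 8148 bp in WT and 7232 and 8093 bp in cKO at the median, and 51% and 39.3% were a single piece in WT and 34.4% and 49.2% in cKO. In this set the shares of single pieces overlapped, so a splitting of wide regions was not seen in both sets. Over all 15390 shared regions the median ratio of cKO to WT covered length was 0.723 and 0.8 when cKO replicate 1 was set against WT replicates 1 and 2, and 0.897 and 0.993 when cKO replicate 2 was, while WT replicate 2 against WT replicate 1 gave 0.924. Near starts (6394 regions) the 4 ratios ran from 0.823 to 1.12, and away from starts (8996 regions) from 0.652 to 0.897.

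The H3.3 chaperones and acetylation machinery were examined because they act on the same nucleosomes. Hira, which deposits H3.3 at expressed genes, had 24944 and 12937 bp in WT and 3138 and 6239 bp in cKO (limma, adjusted p = 0.0963), and Daxx, the chaperone of repeats and telomeres, 643 and 0 bp and 2213 and 4774 bp. Of 30 writers, erasers and readers of acetylation 8 (26.7%) were lost and 2 (6.67%) gained, close to the 23.7% and 5.31% of genes with a region. Crebbp, the acetyltransferase CBP that writes H3K27ac, had 9748 and 12888 bp in WT and 4588 and 4020 bp in cKO (limma, adjusted p = 0.0456). Brd2, a reader, was gained with 501 and 1094 bp and 4606 and 6043 bp, in regions that also lay in the window of H2-DMa. Of 22 replication-coupled H3 and H4 histone genes 1 was gained and 0 lost.

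Sequence around the centres of merged regions was compared as a description, in windows of 500 bp on mm10 and on both strands. Matches of different motifs may overlap and were counted separately. The ISRE letters were those given for the promoters. Merged regions found in the 2 cKO libraries alone (gained) numbered 2995, of which 31.5% lay within 1 kb of a start, against 12.7% of the 12771 found in the 2 WT libraries alone (lost). Away from starts the ISRE letters were found in 16.5% of gained, 18.9% of lost and 20% of shared regions, so gained regions as a whole did not hold them more often. PU.1 letters (GAGGAAGT) were found in 8.48%, 6.59% and 7.99% of the same sets, AP-1 letters (TGANTCA) in 21.1%, 21% and 23.3%, and C/EBP letters (TTGCNNAA) in 22.1%, 22.1% and 21.6%. The motifs of macrophage enhancers thus differed little between sets. E-box letters (CACGTG) were found in 7.22%, 4.93% and 6.99%. Near starts, SP letters (CCCCGCCC) were found in 21.7% of gained, 4% of lost and 10.7% of shared regions, and the median GC content was 56.8%, 43.6% and 48.6%. Whole libraries showed the same order, with SP letters in 2.23% and 2.45% of WT regions and 5.15% and 5.57% of cKO regions.

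H3K36me3, a mark of transcribed gene bodies, was set beside these calls as a readout that the rule did not use, although it came from the same genotypes and was called against IgG of each genotype. By the same gap rule on gene bodies 349 of all genes (1.6%) were gained for H3K36me3 and 2642 (12.1%) lost. Among the 678 genes with gained H3K27ac, 61 (9%) gained and 72 (10.6%) lost H3K36me3, and among the 3025 lost genes 80 (2.64%) gained and 1023 (33.8%) lost it. Of the 9063 other genes with an H3K27ac region, 198 (2.18%) gained and 1457 (16.1%) lost it. The median window was 65.2 kb for lost genes and 24.5 kb for these others, and the fixed gap of 1000 bp took no account of gene length. One H3K36me3 library, cKO replicate 1, covered 90.6 Mb against 163 to 170 Mb in the other 3, and the losses count only what both cKO libraries share. Of the 76 interferon-stimulated genes 30 gained H3K36me3 and 0 lost it, and 22 gained both marks. Ifi44 had no H3K36me3 region in WT and 13911 and 17929 bp in cKO, and Oasl1 none in WT and 11825 and 12563 bp in cKO. Of the 41 ribosomal protein genes 0 gained and 0 lost H3K36me3. Cholesterol genes lost it at 16 of 28 and gained it at 1, and fatty acid and glycerolipid genes at 13 of 32 and 0. Lpin1 had 41771 and 41514 bp of H3K36me3 in WT and 1503 and 9954 bp in cKO. Genes that lost distal H3K27ac did not all follow, since Mrc1 had 76113 and 77783 bp of H3K36me3 in WT and 84970 and 88465 bp in cKO, and Lpl 23975 and 23902 bp and 24703 and 25523 bp.

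**Figure D5:**
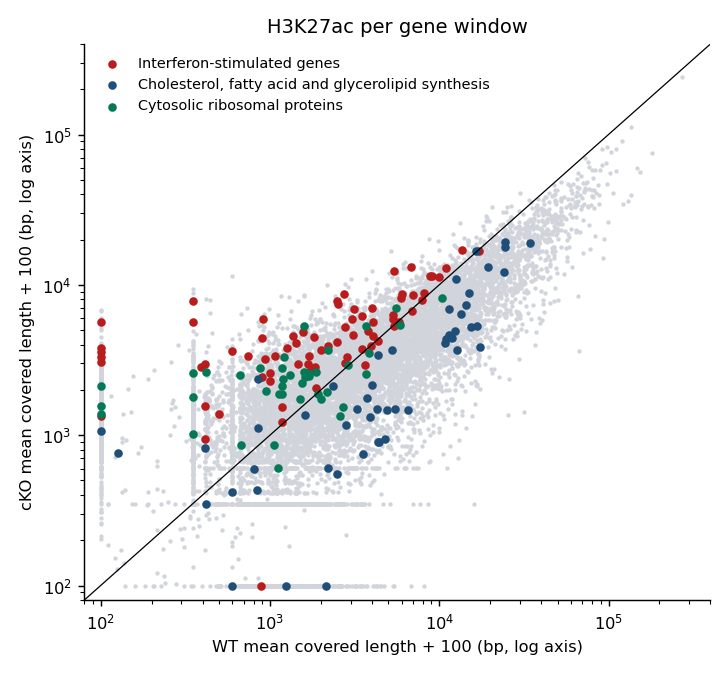
Mean covered length per gene window in cKO (y axis) against WT (x axis), in bp plus 100 on log axes, for genes with a region in at least 2 libraries (grey), with interferon-stimulated genes in red, lipid synthesis genes in blue and ribosomal protein genes in green; the line marks equal length. Red points lie mostly above the line, and blue points mostly below it.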

How the data were processed

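CUT&RUN libraries of H3K27ac from WT and cKO BMDMs (2 each) were compared, with H3K36me3 libraries (2 each) as a further readout. The authors trimmed reads with cutadapt, aligned them to mm10 with Bowtie2, called regions per library with HOMER findPeaks in histone style against IgG of the same genotype, and deposited lists of positions. The deposited score column was constant and was not used, and no signal height was analysed here. Regions are therefore present or absent, and covered length depends on depth and on the control. Genes came from GENCODE M21 (body plus 5000 bp upstream). Overlapping windows count a region for each gene.

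A gene was gained or lost when the groups were apart by 1000 bp or more. limma 3.58.1 (R 4.3.3) was fitted with a trend on log2(covered bp + 500), with Benjamini-Hochberg adjustment, on genes with a region in at least 2 libraries. Both steps were tested on simulated data with planted changes. Those data did not carry the bare genes or the shift in total length of the real libraries. Library values were compared by exact permutation tests, two-sided (scipy 1.17.1). The labels call the replicates biological but do not state whether they came from separate animals or cultures. The p-values measure the spread between these libraries, and how much of it is technical is not known.

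Members and gene lists were chosen with earlier results of these data known, and the lists were written from general knowledge. Named genes were the 10 largest gaps in bp and the 8 largest relative to the window (windows of at least 10 kb) in each direction, up to 4 members of each list with the largest gap, H3f3a, H3f3b, Ifi44 and Lpin1, among genes of at most 500 kb. Genes whose symbol starts with Gm and a digit or ends in Rik were left out. Ifi44 and Lpin1 were shown by the study. Other genes were named after their values were seen, for their role in a list. Alternatives covered the gap, the pseudocount, the filter, scaling, region width and joining, the window, a replicate block and leaving out each library. Some genes and 1 gene list that the rule takes in are not reported here.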

Additional observations from a re-analysis of the deposited data

How the results depend on the processing

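The lower number and length of regions in cKO and the higher share near starts kept their direction in each alternative. With 1 library left out the difference in number ranged from -23533.5 to -16399.5, that in covered length from -36 to -20.2 Mb, and that in the near-start share from 9.62 to 10.3 percentage points (9.97 with equal numbers of the widest regions, added after seeing the data). The median width difference of -7 bp turned to 94.5 bp with regions of at least 1 kb only, and ranged from -33 to 19 bp with 1 library left out, being 6 bp without WT replicate 1 and 19 bp without cKO replicate 1.

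The 678 gained genes became 1424 with a gap of 500 bp, 227 with 2000 bp, 1119 with the widest regions of each list (as many as the shortest holds), 1133 with regions of at least 1 kb, 395 with gene bodies only, and 195 with bases near starts left out, which was chosen after seeing the data. Scaling to the mean covered length gave 2427 gained and 1552 lost. With 1 library left out 773 to 2216 genes were gained (2216 without cKO replicate 1, 1339 without WT replicate 1) and 3218 to 4566 lost (4566 without cKO replicate 2).

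When genes with a region in at least 1 library were tested, limma called 0 higher and 0 lower (957 and 2778 at an unadjusted p below 0.05). Scaling gave 901 and 632. With 1 library left out limma called 0 to 466 higher and 8 to 484 lower, with 0 higher without WT replicate 1, 53 without WT replicate 2, and 88 and 8 lower without cKO replicates 1 and 2. A replicate block gave 0 higher and 0 lower (770 and 1993 unadjusted). Same-numbered libraries did not deviate together (correlation -0.012 over 11696 genes). The labels give no pairing, and whether same-numbered libraries shared a preparation was not tested.

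Single genes turned direction under scaling, with cKO minus WT at 296 bp for Ifngr1, 2202 bp for Ifngr2, 7974 bp for Runx1, 2797 bp for Zeb2, 1435 bp for Pparg, 1579 bp for Itgb5 and 3644 bp for Itgb2. Erap1 stood at 253 bp with the widest regions and 530.5 bp with regions of at least 1 kb, and Fos at -9.5 bp with gene bodies only. For each of these changes the cause was not tested. Regions carry no signal height, so a change within a region that stays called is not seen.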
